A study of Mus musculus with 8 samples.

Results

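Chemokine receptors are G protein-coupled receptors that read gradients of chemokines, small secreted proteins, and steer leukocytes into and within tissues. Regulatory T (Treg) cells, the Foxp3-expressing CD4+ T cells that restrain immune responses, change the set of receptors they carry when they leave the resting state, and each receptor is known for a different destination, such as B cell follicles, skin, gut or inflamed tissue. The 9 genes described here are *Ccr2*, *Ccr4*, *Ccr6*, *Ccr8*, *Ccr9*, *Cxcr3*, *Cxcr4*, *Cxcr5* and *Cxcr6*. They were chosen by name as receptors for tissue trafficking, out of 27594 genes in the count table, and all 9 were found there.

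The study sorted CD4+YFP+ Treg cells out of spleen and peripheral lymph nodes taken from C57BL/6 mice aged 6 to 8 weeks, and measured their mRNA by RNA sequencing. There were 4 groups of 2 libraries. WT rTreg and WT aTreg cells came from Foxp3-YFP-Cre mice. Foxp1 cKO rTreg and Foxp1 cKO aTreg cells came from Foxp1fl/fl Foxp3-YFP-Cre mice, in which the forkhead transcription factor Foxp1 is deleted by a Cre recombinase expressed from the *Foxp3* locus. All 4 groups carried the Cre allele, and the gene was lost in the animal, in any cell that had expressed *Foxp3*. Resting cells (rTreg) were gated as CD44lowCD62Lhigh and activated cells (aTreg) as CD44highCD62Llow. The labels do not say how many mice gave a library.

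The libraries held 6373170 to 15268623 counted reads (median 12327710), so that 3 reads, the floor used for detection, stood for 0.196 to 0.471 CPM (reads of a gene scaled to the library total). Reads counted over the whole *Foxp1* gene were 234 and 230 CPM in WT aTreg cells against 126 and 102 CPM in Foxp1 cKO aTreg cells. They were 353 and 384 CPM in WT rTreg cells against 342 and 338 CPM in Foxp1 cKO rTreg cells, so the count over the whole gene left the genotype labels of the rTreg libraries unchecked. In every group replicate 1 had at most 3 reads of *Xist* and replicate 2 had none of *Ddx3y*, so the replicates of a group came from different mice, and replicate number and the sex of the mice cannot be told apart. With 2 libraries a group, the p-values measure the spread between these libraries once the replicate number is taken out. The 10 T and Treg cell markers summed to 4125 to 4544 CPM in rTreg libraries and to 4914 to 5807 CPM in aTreg libraries.

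Levels below are CPM scaled by the trimmed mean of M-values (TMM). Differences are log2 fold changes ± SE from edgeR (quasi-likelihood test), with p-values adjusted by Benjamini-Hochberg over 14540 genes. A receptor was called between genotypes at an adjusted p under 0.05 and at least 1.5-fold, and between subsets at an adjusted p under 0.05 and at least 2-fold. All 9 receptors passed the filter on low counts. For 8 of them every library was above its level of 0.811 CPM, and for *Ccr2* 6 libraries were, 2 of them rTreg.

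Because Foxp1 is a forkhead factor, the DNA just before a RefSeq start of the receptors called between genotypes in rTreg cells is shown first. The stretches run 5′ to 3′ on the gene's own strand, lie outside every annotated exon, and are from RefSeq on GRCm38.p6. Capitals mark matches on either strand to a written form of the forkhead motif. The full form searched was TGTTTAC. The core form was TGTTTA, which is part of it, and the relaxed form was TGTTTNC, which every full match also meets. *Cxcr3* is at chrX:101734270-101734397, *Ccr4* at chr9:114496563-114496794 and *Cxcr4* at chr1:128592300-128592549, all on the minus strand. The *Ccr4* stretch lies inside the gene as the GENCODE annotation places it (114490316 to 114504916), before a RefSeq start within it. *Cxcr5*, the other such receptor, is named only.
Cxcr3: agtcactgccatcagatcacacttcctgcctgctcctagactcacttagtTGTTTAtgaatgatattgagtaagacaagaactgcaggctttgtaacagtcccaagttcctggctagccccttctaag
Ccr4: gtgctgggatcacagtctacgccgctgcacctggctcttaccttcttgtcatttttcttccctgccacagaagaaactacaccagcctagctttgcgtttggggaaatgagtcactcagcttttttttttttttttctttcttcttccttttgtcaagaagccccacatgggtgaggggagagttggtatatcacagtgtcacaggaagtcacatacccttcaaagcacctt
Cxcr4: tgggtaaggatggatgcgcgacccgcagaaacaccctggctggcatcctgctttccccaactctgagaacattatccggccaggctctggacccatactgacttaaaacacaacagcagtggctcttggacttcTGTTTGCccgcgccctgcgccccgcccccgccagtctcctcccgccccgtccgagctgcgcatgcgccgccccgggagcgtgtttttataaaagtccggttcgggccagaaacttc

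The *Cxcr3* stretch held 1 match to TGTTTA and the *Cxcr4* stretch 1 match to TGTTTNC, while the *Ccr4* stretch held none of these letters. Of the 9 promoter entries of 8 receptors (250 bases before a start; *Ccr6* has 2 starts), 0 held TGTTTAC, 1 held TGTTTA and 2 held TGTTTNC, the last in *Cxcr4* and *Cxcr6*. Among all 32851 promoter entries of the same length, 3.17% held TGTTTAC, 12.03% held TGTTTA and 17.84% held TGTTTNC. These are matches of letters, and binding was not measured here.

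*Cxcr4*, the receptor for Cxcl12 that holds lymphocytes in bone marrow and lymphoid tissue, was by far the most abundant of the 9 in resting cells. Per gene length, on the deposited FPKM scale (fragments per kilobase, scaled to library size), it stood at 118 and 56.0 in WT rTreg cells. That was 87.8% and 84.6% of the summed FPKM of the 9 receptors. The next receptors in WT rTreg cells were *Ccr8* at 3.35 ± 3.08 FPKM (SD, n = 2), *Cxcr5* at 2.72 ± 0.209, *Ccr6* at 2.03 ± 1.27, *Ccr4* at 1.90 ± 0.183 and *Ccr9* at 1.82 ± 0.207 FPKM. Each of these neighbours overlapped the next in range, so their order was not resolved. *Cxcr6* (0.706 ± 0.157 FPKM) and *Cxcr3* (0.573 ± 0.128 FPKM) also overlapped each other, and *Ccr2* (0.209 ± 0.217 FPKM) was lowest. The length used was that of all exons of a gene merged (10260 bp for *Ccr9*), except for *Ccr6* (2028 against 2320 bp). FPKM orders and shares depend on this length. By mean CPM, *Ccr9* (18.9) stood above *Ccr8* (3.93) in WT rTreg cells.

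In WT aTreg cells the order was *Cxcr4* (150 and 65.1 FPKM), *Cxcr3* (64.3 and 58.1 FPKM), *Ccr8*, *Ccr4*, *Ccr6*, *Cxcr5*, *Cxcr6*, *Ccr2* and *Ccr9*. *Cxcr4* made up 36.4% and 26.8% of the sum there, and *Cxcr3* 15.6% and 23.9%. From *Cxcr3* down to *Cxcr5* each neighbour in this order overlapped the next. In Foxp1 cKO aTreg cells *Cxcr3* had rank 1, at 118 and 159 FPKM, above *Cxcr4* at 114 and 84.1 FPKM, and the ranges of these 2 receptors did not overlap. *Cxcr3* was then 27.8% and 40.9% of the sum of the 9 receptors. In Foxp1 cKO rTreg cells *Cxcr4* kept rank 1 with 73.9% and 58.8%, while *Cxcr3*, at rank 8 in WT rTreg cells, stood at rank 4 with 3.09% and 9.74%. The bar chart of receptor shares shows these mixtures.

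**Figure D1:**
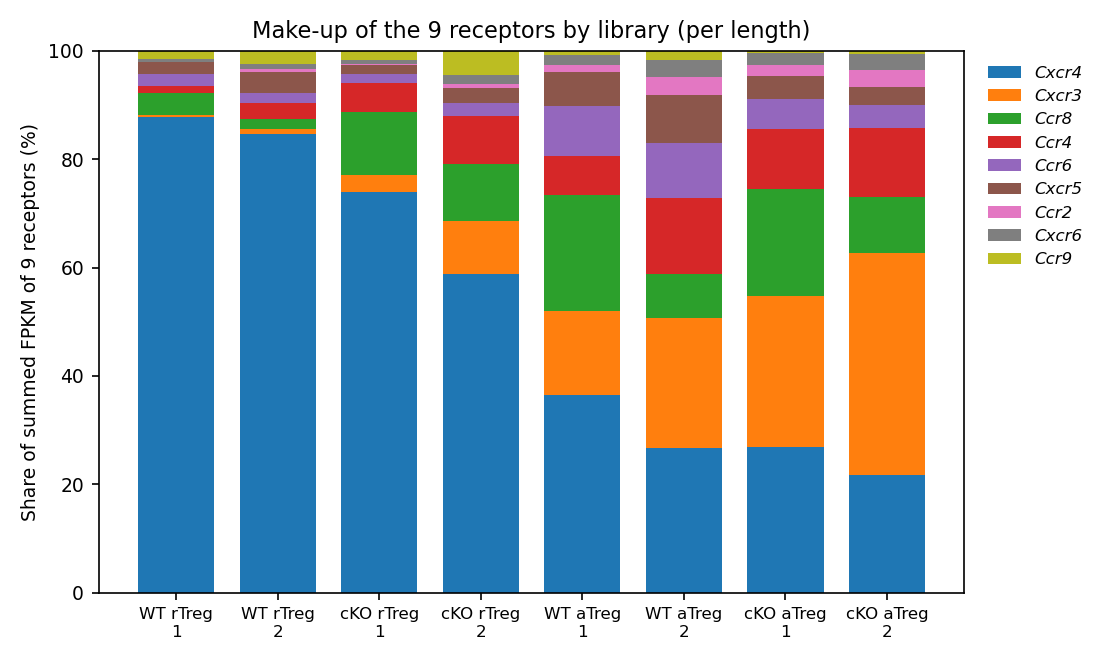
Stacked bars give each receptor's share (%) of the summed FPKM of the 9 receptors in each of the 8 libraries, grouped as WT rTreg, Foxp1 cKO rTreg, WT aTreg and Foxp1 cKO aTreg. *Cxcr4* fills 87.8% and 84.6% of the WT rTreg bars and 21.7% of the lowest Foxp1 cKO aTreg bar, where *Cxcr3* fills 40.9%.

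The first comparison asked which receptors differed between activated and resting cells of the same genotype. In WT cells 7 of the 9 receptors were higher in aTreg cells and 0 were lower, where 9.5% of all genes tested were called higher and 2.83% lower. In Foxp1 cKO cells 8 were higher and 0 lower, against 11.3% and 4.39% of all genes. All 9 fitted changes were above 0 in both genotypes. The median log2 fold change of the 9 was 3.90 in WT and 3.81 in Foxp1 cKO cells, beside -0.0046 and -0.018 over all genes tested. Both comparisons share libraries with the genotype comparisons below. In bulk samples a larger number of cells that carry a receptor and more RNA per cell cannot be told apart.

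*Cxcr3*, the receptor for the interferon-induced ligands Cxcl9, Cxcl10 and Cxcl11 and a mark of Th1-type Treg cells, differed most in WT cells. It was 0.829 and 1.18 CPM in WT rTreg cells (9 and 15 reads) and 108 and 98.5 CPM in WT aTreg cells. The log2 fold change was 6.67 ± 0.23 (adjusted p = 4.23e-06). In Foxp1 cKO cells it was 4.14 and 5.85 CPM in rTreg cells and 198 and 279 CPM in aTreg cells, a log2 fold change of 5.53 ± 0.19 (adjusted p = 2.27e-06). The ranges of rTreg and aTreg libraries lay far apart in both genotypes.

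*Ccr2*, the receptor for Ccl2 that takes cells to inflamed tissue, was near the floor in resting cells. WT rTreg libraries held 4 and 32 reads (0.368 and 2.51 CPM) and Foxp1 cKO rTreg libraries 3 and 21 reads (0.478 and 1.52 CPM). WT aTreg libraries stood at 34.5 and 53.7 CPM and Foxp1 cKO aTreg libraries at 55.2 and 84.7 CPM. The log2 fold changes were 4.91 ± 0.29 in WT (adjusted p = 2.59e-05) and 6.02 ± 0.31 in Foxp1 cKO cells (adjusted p = 9.67e-06), and they rest on few reads on the resting side. Without WT rTreg replicate 2 the WT value was 6.51, without Foxp1 cKO rTreg replicate 2 the Foxp1 cKO value was 6.77, and on the log2(FPKM + 1) scale they were 2.65 and 3.30. How reads that map to more than 1 receptor gene were handled is not given in the sources used here.

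*Cxcr6*, the receptor for Cxcl16, which marks tissue-resident T cells, was scarce in resting cells. Its levels were 1.57 and 1.18 CPM in WT rTreg, 13.6 and 14.8 CPM in WT aTreg, 1.12 and 1.16 CPM in Foxp1 cKO rTreg and 18.0 and 21.6 CPM in Foxp1 cKO aTreg cells. It rose in aTreg cells by a log2 fold change of 3.38 ± 0.21 in WT (adjusted p = 3.25e-05) and 4.12 ± 0.22 in Foxp1 cKO cells (adjusted p = 1.12e-05). The gene lies inside *Fyco1*, on the opposite strand and sharing 0 exon bases, and *Fyco1* stayed within 73.8 to 113 CPM in all 8 libraries.

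*Ccr4* and *Ccr8*, which bind Ccl17 and Ccl22, and Ccl1, respectively, are known for Treg entry into skin and tumours. *Ccr4* was 5.43 and 6.44 CPM in WT rTreg cells and 88.9 and 103 CPM in WT aTreg cells, a log2 fold change of 4.01 ± 0.14 (adjusted p = 4.03e-06). In Foxp1 cKO cells it went from 12.4 and 9.53 CPM to 139 and 156 CPM, a log2 fold change of 3.81 ± 0.13 (adjusted p = 2.27e-06). The replicates of *Ccr4* were close in every group. Those of *Ccr8* were not: it was 6.45 and 1.41 CPM in WT rTreg, 101 and 22.9 CPM in WT aTreg, 10.7 and 4.33 CPM in Foxp1 cKO rTreg and 95.6 and 47.9 CPM in Foxp1 cKO aTreg cells. With the replicate number in the fit, its log2 fold change was 3.90 ± 0.32 in WT (adjusted p = 0.000112) and 3.33 ± 0.30 in Foxp1 cKO cells (adjusted p = 0.000108), and all aTreg libraries lay above all rTreg libraries.

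*Ccr6* and *Ccr9* are receptors of the intestinal mucosa, for Ccl20 and Ccl25. *Ccr6* was 5.89 and 2.36 CPM in WT rTreg and 75.9 and 49.4 CPM in WT aTreg cells, a log2 fold change of 3.96 ± 0.17 (adjusted p = 7.94e-06). In Foxp1 cKO cells it was 2.87 and 1.66 CPM in rTreg and 47.4 and 33.4 CPM in aTreg cells, a log2 fold change of 4.19 ± 0.20 (adjusted p = 6.45e-06). *Ccr9* was the receptor not called in either genotype. It was 20.1 and 17.7 CPM in WT rTreg, 33.9 and 41.4 CPM in WT aTreg, 14.0 and 15.7 CPM in Foxp1 cKO rTreg and 15.2 and 25.7 CPM in Foxp1 cKO aTreg cells. Its log2 fold change of 0.99 ± 0.19 in WT cells (adjusted p = 0.00624) was just short of 2-fold and passed it in 5 of 14 alternative settings (1.03 with limma-voom, adjusted p = 0.00474), and that of 0.45 ± 0.20 in Foxp1 cKO cells missed the threshold (adjusted p = 0.119). The exons of *Ccr9* share 1932 bases with an antisense gene (ENSMUSG00000091661) and 269 bases with *Gm17200*, and neither had more than 11 reads in any library; how reads over shared bases were assigned is not given in the sources used here.

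*Cxcr5*, the receptor for Cxcl13 that brings T cells to B cell follicles, was 9.49 and 8.80 CPM in WT rTreg cells and 83.8 and 69.5 CPM in WT aTreg cells. In Foxp1 cKO cells it was 4.14 and 3.25 CPM in rTreg and 57.7 and 45.1 CPM in aTreg cells. The log2 fold change between subsets was 3.06 ± 0.10 in WT (adjusted p = 3.12e-06) and 3.80 ± 0.11 in Foxp1 cKO cells (adjusted p = 1.79e-06). *Cxcr5* shares 110 exon bases with *Bcl9l* on the opposite strand, which was 299.7 to 390.2 CPM in rTreg and 206 to 242 CPM in aTreg libraries and so went the other way.

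*Cxcr4* was the exception in WT cells. It was 211 and 104 CPM in WT rTreg and 264 and 115 CPM in WT aTreg cells, with overlapping ranges and a log2 fold change of 0.24 ± 0.21 (adjusted p = 0.429, 95% interval -0.25 to 0.73). In Foxp1 cKO cells it was 103 and 36.9 CPM in rTreg and 201 and 155 CPM in aTreg cells. That difference was a log2 fold change of 1.52 ± 0.22 (adjusted p = 0.00121), and the groups did not overlap. Without the replicate block the adjusted p was 0.144.

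**Figure D2:**
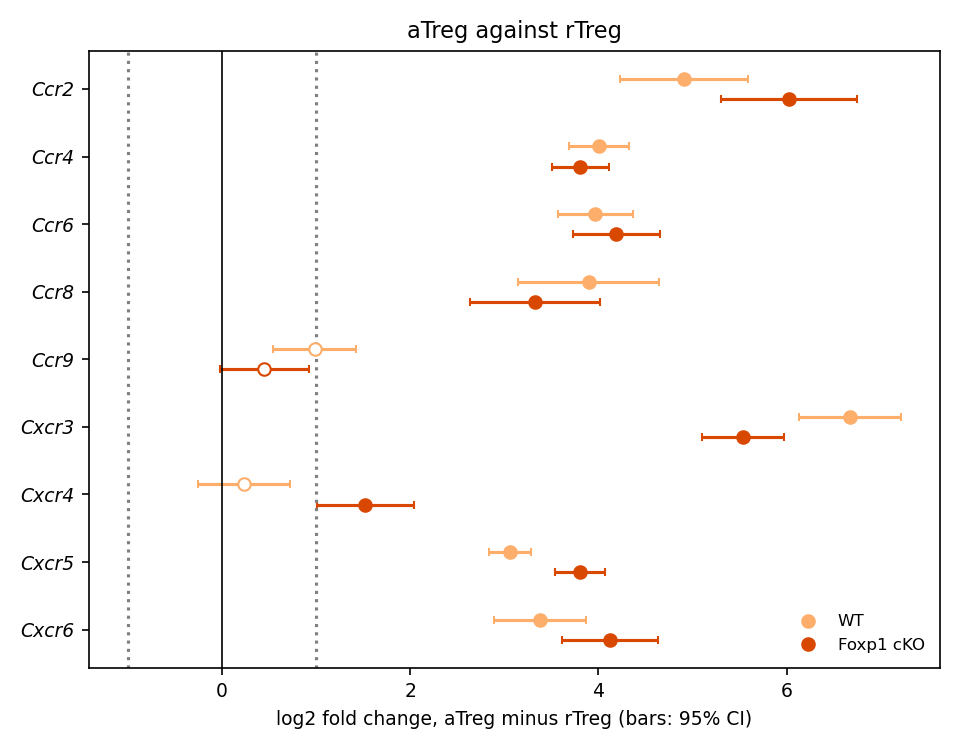
Points give the log2 fold change of each receptor in aTreg against rTreg cells, light for WT and dark for Foxp1 cKO, with 95% confidence intervals as bars; filled points were called, open points were not, and dotted lines mark 2-fold. *Cxcr3* lies farthest right in WT (6.67) and *Ccr2* in Foxp1 cKO cells (6.02), while *Ccr9* and, in WT cells, *Cxcr4* are open.

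Genes listed as markers of other cells were summed as well. The sums differed between the subsets, and the CD8 sum was the lower in aTreg libraries. Whether these reads came from other cells or from the Treg cells themselves was not tested. The 10 B cell markers summed to 9.21 to 11.95 CPM in rTreg libraries and 34.6 to 39.9 CPM in aTreg libraries. Of the 5 tested 3 were called higher in WT and 4 in Foxp1 cKO aTreg cells, against 9.5% and 11.3% of all genes. *Cd79b* (4.33 to 5.34 CPM in rTreg and 14.7 to 17.3 CPM in aTreg libraries) and *Cd22* (0.236 to 1.43 and 13.1 to 19.9 CPM) were called higher in aTreg cells of both genotypes, as was *Pax5* (0 to 0.144 and 0.577 to 1.08 CPM), and *Blk* was called in Foxp1 cKO cells (at most 1.08 CPM in any library). *Pax5* and *Blk* stood at 0 to 0.184 CPM in the rTreg libraries, under the filter level of 0.811 CPM. These 2 genes passed the filter through aTreg libraries alone, so that a difference was fixed by the filter. The counts of 3 and 4 are therefore a description. *Ms4a1* had at most 4 reads in any library. *Ebf1* was at 0 in both WT aTreg libraries and *Ms4a1* in both Foxp1 cKO rTreg libraries. The 10 myeloid markers summed to 34.9 to 52.4 CPM in rTreg and 50.2 to 81.5 CPM in aTreg libraries, most of it *Cst3*, and *Clec7a* was at 0 in all 4 WT libraries. The 5 NK cell markers summed to 2.44 to 3.47 CPM in rTreg and 4.83 to 9.17 CPM in aTreg libraries. The 2 CD8 markers summed to 12.5 to 16.7 CPM and 6.11 to 9.98 CPM. The 5 plasma cell markers summed to 89.2 to 127 CPM and 127 to 177 CPM, most of it *Xbp1* and *Prdm1*. *Xbp1* was 75.8 to 111 CPM over all libraries, and *Prdm1* 7.65 to 10.8 CPM in rTreg and 48.7 to 90.3 CPM in aTreg libraries. *Jchain* was at most 10.4 CPM, and *Sdc1* and *Mzb1* at most 1.28 CPM, in any library. The part of these marker genes in the receptor differences was not tested.

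**Figure D3:**
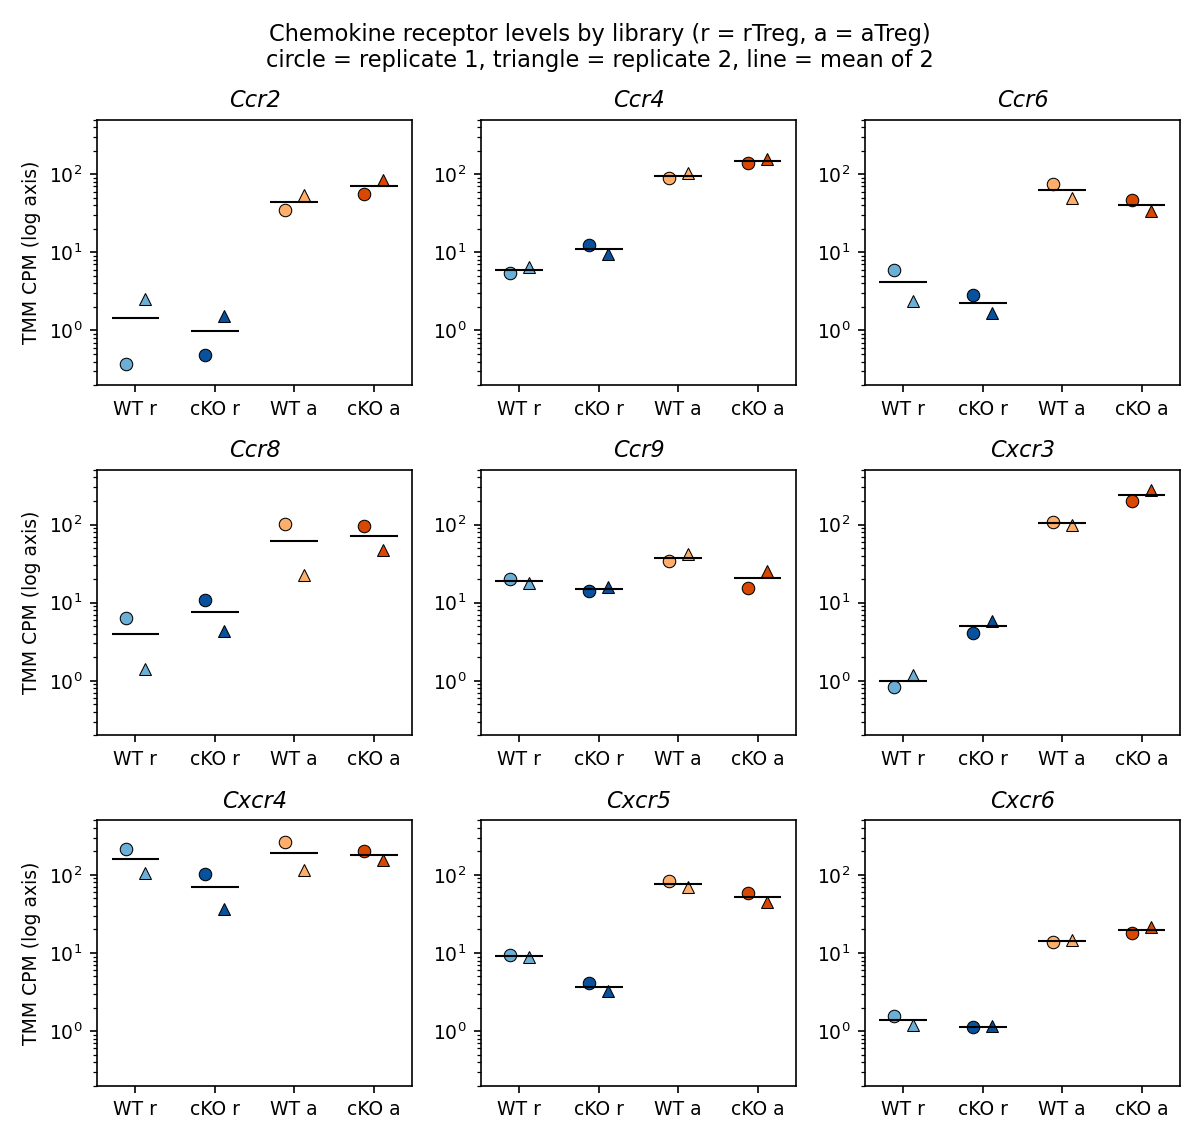
Each panel gives 1 receptor in TMM CPM on a log axis of the same range, with a circle for replicate 1, a triangle for replicate 2 and a line for their mean, in WT and Foxp1 cKO rTreg (r) and aTreg (a) cells. The aTreg libraries lie above the rTreg libraries for 7 receptors, and *Cxcr4* and *Ccr9* overlap. *Ccr6*, *Ccr8*, *Cxcr4* and *Cxcr5* have the circle above the triangle in every group.

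The second comparison asked which receptors differed between Foxp1-deficient and WT cells of the same subset. In rTreg cells 2 receptors were higher (*Cxcr3* and *Ccr4*) and 2 lower (*Cxcr4* and *Cxcr5*) in Foxp1 cKO cells, where 2.9% of all genes tested were called higher and 2.7% lower. In aTreg cells 2 were higher (*Cxcr3* and *Ccr4*) and 2 lower (*Ccr6* and *Ccr9*), against 2.37% and 1.66% of all genes. The 2 receptors that were higher were so in both subsets. The median log2 fold change of the 9 was -0.36 in rTreg and 0.46 in aTreg cells, beside 0.0029 and 0.0018 over all genes tested.

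*Cxcr3* showed the largest genotype difference of the 9 in both subsets. Its levels in rTreg cells, 0.829 and 1.18 CPM in WT against 4.14 and 5.85 CPM in Foxp1 cKO, gave a log2 fold change of 2.33 ± 0.35, or 5.03-fold (adjusted p = 0.00696). It was near the floor in WT rTreg cells, and the call was lost without WT rTreg replicate 2 or without Foxp1 cKO rTreg replicate 2 (adjusted p up to 0.111) and with limma-voom (adjusted p = 0.0632). On the log2(FPKM + 1) scale, which shrinks low levels, the log2 fold change was 1.27, called with a filter on low values (adjusted p = 0.0171) and not called without (adjusted p = 0.0555). In aTreg cells 108 and 98.5 CPM in WT stood against 198 and 279 CPM in Foxp1 cKO, a log2 fold change of 1.19 ± 0.13, or 2.28-fold (adjusted p = 0.00374). That call held with each of the 4 aTreg libraries left out in turn, with a log2 fold change of 0.87 to 1.51, and was lost without the replicate block (adjusted p = 0.0502) and on 2 of the 3 log2 FPKM scales (adjusted p = 0.0530 and 0.0909). *Cxcr3* is on the X chromosome, and both replicate pairs gave the same direction in both subsets.

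*Ccr4* was higher in Foxp1 cKO cells by a smaller factor. Its levels were 5.43 and 6.44 CPM in WT rTreg against 12.4 and 9.53 CPM in Foxp1 cKO rTreg cells, a log2 fold change of 0.82 ± 0.17 or 1.77-fold (adjusted p = 0.0222). In aTreg cells they were 88.9 and 103 CPM against 139 and 156 CPM, a log2 fold change of 0.63 ± 0.10 or 1.54-fold (adjusted p = 0.0148). The groups did not overlap in either subset. The rTreg call was lost without any 1 of WT rTreg replicate 1, WT rTreg replicate 2 and Foxp1 cKO rTreg replicate 1, and the aTreg call without any 1 of the 4 aTreg libraries (adjusted p 0.0596 to 0.164). Without the replicate block both were lost (adjusted p = 0.0608 in rTreg and 0.128 in aTreg cells).

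*Cxcr5* was lower in Foxp1 cKO rTreg cells, at 4.14 and 3.25 CPM against 9.49 and 8.80 CPM in WT. The log2 fold change was -1.32 ± 0.14, a 2.50-fold lower level (adjusted p = 0.00176), and this call held with each of the 4 rTreg libraries left out (log2 fold change -1.43 to -1.22). In aTreg cells the values were 57.7 and 45.1 CPM against 83.8 and 69.5 CPM, again without overlap. The log2 fold change there was -0.58 ± 0.080 (adjusted p = 0.00821), which at 1.495-fold lower passed the test but fell just short of the 1.5-fold threshold.

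*Cxcr4* was lower in Foxp1 cKO rTreg cells, at 103 and 36.9 CPM against 211 and 104 CPM in WT, a log2 fold change of -1.24 ± 0.22 or a 2.37-fold lower level (adjusted p = 0.0130). The higher Foxp1 cKO library was level with the lower WT library, and within each replicate number the Foxp1 cKO library was the lower (log2 differences of -1.03 and -1.49). The call was lost without WT rTreg replicate 1, without WT rTreg replicate 2 or without Foxp1 cKO rTreg replicate 2 (adjusted p up to 0.131), and without the replicate block (adjusted p = 0.367). In aTreg cells the values were 201 and 155 CPM against 264 and 115 CPM, they overlapped, and the log2 fold change was 0.039 ± 0.21 (adjusted p = 0.938, 95% interval -0.45 to 0.53).

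The mucosal receptors were lower in Foxp1 cKO aTreg cells. *Ccr6* was 47.4 and 33.4 CPM against 75.9 and 49.4 CPM in WT, a log2 fold change of -0.62 ± 0.13 (adjusted p = 0.0342). *Ccr9* was 15.2 and 25.7 CPM against 33.9 and 41.4 CPM, a log2 fold change of -0.89 ± 0.19 (adjusted p = 0.0330). Neither pair of groups overlapped. The *Ccr6* call was lost with each of the 4 aTreg libraries left out in turn (log2 fold change -0.76 to -0.48). The *Ccr9* call was lost with 3 of the 4 left out (log2 fold change -1.26 to -0.60 over all 4). Both were lost without the replicate block (adjusted p = 0.573 for *Ccr6* and 0.197 for *Ccr9*). In rTreg cells the log2 fold change was -0.84 ± 0.26 for *Ccr6* (adjusted p = 0.0799) and -0.36 ± 0.21 for *Ccr9* (adjusted p = 0.309), which were not called.

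The other 3 receptors were not called between genotypes. *Ccr8* had a log2 fold change of 1.03 ± 0.41 in rTreg (adjusted p = 0.147, and 0.0278 with DESeq2, 95% interval 0.079 to 1.97) and 0.46 ± 0.24 in aTreg cells (adjusted p = 0.289, -0.088 to 1.00). *Ccr2* had -0.44 ± 0.52 in rTreg (adjusted p = 0.629, -1.65 to 0.77) and 0.67 ± 0.19 in aTreg cells (adjusted p = 0.0779, and 0.0302 with limma-voom, 0.24 to 1.11). *Cxcr6* had -0.27 ± 0.31 in rTreg (adjusted p = 0.684, -0.99 to 0.46) and 0.48 ± 0.15 in aTreg cells (adjusted p = 0.107, 0.13 to 0.83). These intervals are wide enough to hold changes of 1.5-fold in at least 1 direction in all 6 cases. In aTreg cells the Foxp1 cKO libraries of *Ccr2* and *Cxcr6* were nonetheless both above the WT libraries.

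**Figure D4:**
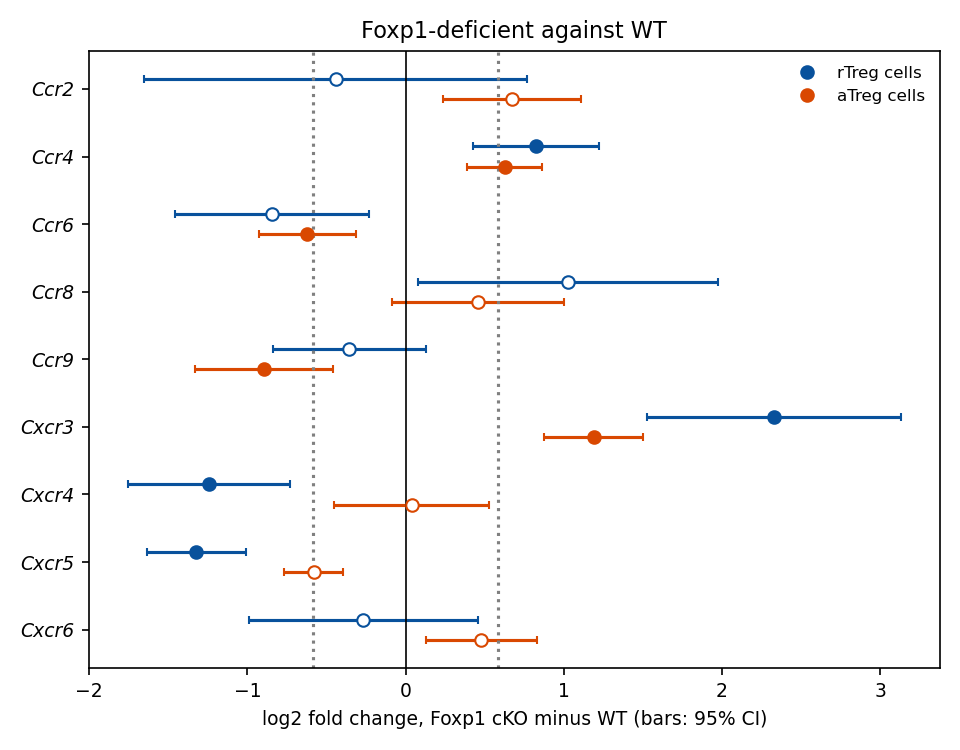
Points give the log2 fold change of each receptor in Foxp1 cKO against WT cells, blue for rTreg and orange for aTreg cells, with 95% confidence intervals as bars; filled points were called, open points were not, and dotted lines mark 1.5-fold. *Cxcr3* (2.33 and 1.19) and *Ccr4* (0.82 and 0.63) are filled on the right in both subsets, and *Cxcr5* in aTreg cells (-0.58) is open beside the line.

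Other measures moved with genotype beside these differences. The myeloid marker sum was 34.9 to 42.6 CPM in WT rTreg against 40.8 to 52.4 CPM in Foxp1 cKO rTreg libraries. It was 50.2 to 56.0 CPM in WT aTreg against 63.8 to 81.5 CPM in Foxp1 cKO aTreg libraries. Of the 6 myeloid markers tested 3 (*S100a8*, *S100a9* and *Fcgr3*) were called higher in Foxp1 cKO rTreg cells, against 2.9% of all genes. *S100a8* and *Fcgr3* stood at 0 to 0.658 CPM in the WT libraries, under the filter level of 0.811 CPM. These 2 genes passed the filter through Foxp1 cKO libraries alone, so that a difference was in part fixed by the filter. *S100a9* stood at 0.184 and 0 CPM in WT rTreg libraries. The count of 3 is therefore a description. *Csf1r* had at most 8 reads in any library. The B cell marker sum was 9.21 to 9.43 CPM against 10.8 to 11.95 CPM in rTreg cells, with *Cd22* called higher, and 34.6 to 39.9 CPM against 35.8 to 38.6 CPM in aTreg cells. Their part in the receptor differences was not tested.

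The third comparison asked whether the genotype difference itself differed between subsets (the interaction). By edgeR 0 of the 9 receptors passed an adjusted p of 0.05, where 0.186% of all genes were called higher and 0.144% lower. At an unadjusted p under 0.05 there were 3 receptors. The share of all genes at that unadjusted level is not reported here, so this count is a description. limma-voom and DESeq2 also called 0, and edgeR with no filter on low counts called 3. The 3 were *Cxcr4* with a difference of log2 fold changes of 1.28 ± 0.31 (adjusted p = 0.132), *Cxcr5* with 0.74 ± 0.16 (adjusted p = 0.104) and *Cxcr3* with -1.14 ± 0.39 (adjusted p = 0.267). In these libraries *Cxcr5* was thus lowered more, and *Cxcr3* raised more, in rTreg than in aTreg cells. *Cxcr4* was lowered in rTreg cells, with a log2 fold change of 0.039 ± 0.21 in aTreg cells. The difference between subsets did not pass the test for any of the 3. Without WT aTreg replicate 2 *Cxcr3* passed (adjusted p = 0.0498), and without Foxp1 cKO aTreg replicate 1 *Cxcr4* passed (adjusted p = 0.0283). For the other 6 the difference ranged from -0.57 for *Ccr8* to 1.12 for *Ccr2*, the latter with an SE of 0.55.

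**Figure D5:**
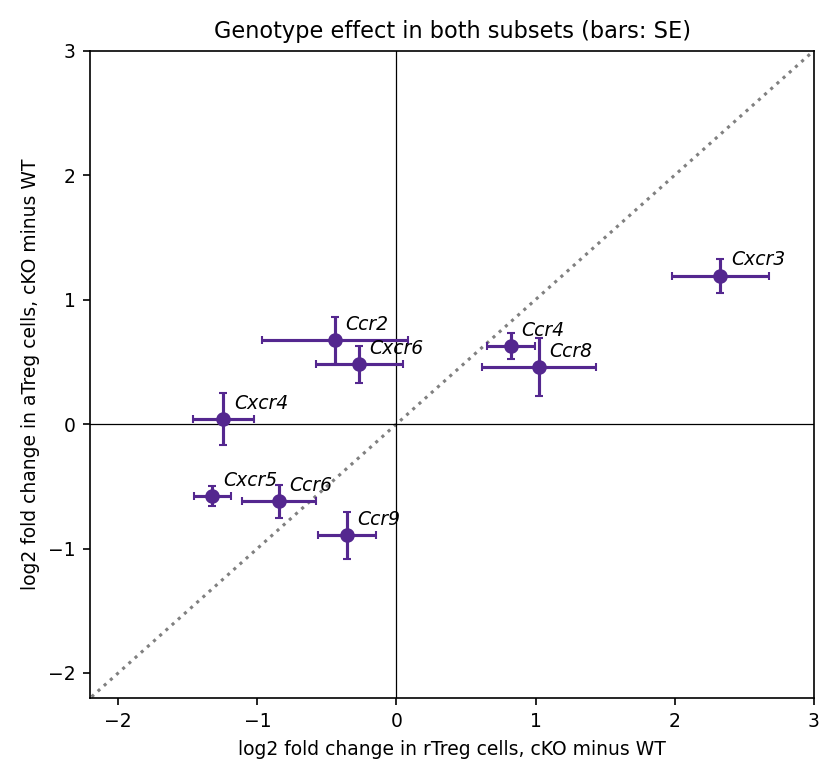
Each point is 1 receptor, with its log2 fold change in Foxp1 cKO against WT in rTreg cells on the x axis and in aTreg cells on the y axis, SE as bars, and a dotted line where both are equal. *Cxcr3* (2.33, 1.19) lies below the line and *Cxcr4* (-1.24, 0.039) and *Cxcr5* (-1.32, -0.58) above it, and none of the 9 differences passed the adjusted test.

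Of 17 other chemokine receptors listed for comparison, 16 were in the files and 8 passed the filter. In aTreg against rTreg cells 5 were called higher in WT, and 5 higher and 1 lower in Foxp1 cKO cells. *Ccr7*, which brings T cells into lymph nodes, was the 1 that was lower. It stood at 397 and 308 CPM in WT rTreg, 205 and 196 CPM in WT aTreg, 298 and 212 CPM in Foxp1 cKO rTreg and 79.6 and 59.1 CPM in Foxp1 cKO aTreg cells. Between genotypes it was lower in aTreg cells by a log2 fold change of -1.56 ± 0.10 (adjusted p = 0.000598), and its interaction of -1.08 ± 0.14 passed (adjusted p = 0.0316). Those higher in aTreg cells of both genotypes included *Ccrl2*, *Ccr3*, *Ccr10* and *Xcr1*, with log2 fold changes in WT of 2.48 ± 0.19, 5.11 ± 0.52, 5.23 ± 0.89 and 4.31 ± 0.79. *Ccr3*, *Ccr10* and *Xcr1* stood at 0 to 0.319 CPM in the rTreg libraries, under the filter level of 0.811 CPM. They passed the filter through the aTreg libraries alone, so that a difference was fixed by the filter, and the count of 5 is a description.

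Of 33 chemokine ligands, 27 were in the files and 7 passed the filter, and 4 of these were higher in aTreg cells of both genotypes. *Cxcl10*, a ligand of Cxcr3, was 0.829 and 0.314 CPM in WT rTreg and 23.2 and 12.3 CPM in WT aTreg cells, a log2 fold change of 4.93 ± 0.32. *Ccl5*, a ligand of Ccr3 among others, was 0.829 and 0.393 CPM against 12.9 and 12.4 CPM, a log2 fold change of 4.39 ± 0.49, and *Cxcl2*, a ligand of Cxcr2, had 4.73 ± 0.57. *Ccl1*, the Ccr8 ligand, had 0 reads in all 4 rTreg libraries and 0.321 to 2.35 CPM in the aTreg libraries. *Ccl1* and *Cxcl2* (0 to 0.276 CPM in rTreg libraries) passed the filter through aTreg libraries alone, so the count of 4 is likewise a description. Between genotypes the adjusted p of *Cxcl10* was 0.136 in rTreg and 0.147 in aTreg cells.

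Of 36 genes of signaling downstream of these receptors, 35 were in the files and 32 passed the filter, and their median differences lay near 0 in every comparison (-0.057 to 0.14). *Rgs16*, a regulator of G protein signaling that shortens receptor signals, was lower in Foxp1 cKO rTreg cells, as *Cxcr4* was. It was 49.1 and 20.6 CPM in WT against 21.2 and 7.73 CPM in Foxp1 cKO rTreg cells, a log2 fold change of -1.32 ± 0.29 (adjusted p = 0.0260), and it was the 1 signaling gene called between genotypes. In aTreg against rTreg cells 2 were higher in WT (*Gng2* and *Rgs16*) and 5 in Foxp1 cKO cells (*Gng2*, *Rgs16*, *Rgs3*, *Plcb3* and *Grk5*). *Pik3r5*, a regulatory subunit of the phosphoinositide 3-kinase that G proteins activate, was the 1 lower in both, by -1.08 ± 0.11 and -1.32 ± 0.11. *Plcb3*, a phospholipase C, had the 1 interaction that passed (0.72 ± 0.10, adjusted p = 0.0473).

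Across the 8 libraries, the genes whose log2 CPM was most like that of a receptor are given as a description, since the libraries fall into rTreg and aTreg groups and share replicates. Over 12083 genes compared, the 2 closest by Pearson's r were *Dscam* (0.997) and *Lilr4b* (0.996) for *Cxcr3*, *Lyn* (0.997) and *Il12rb1* (0.996) for *Ccr4*, *Tshz3* (0.996) and *Arhgap31* (0.995) for *Ccr2*, and *Plcd1* and *Zdhhc2* (both 0.997) for *Cxcr6*. They were *Adam12* (0.997) and *Clstn1* (0.995) for *Cxcr5*, *Ndst1* (0.995) and *Nr1d1* (0.994) for *Ccr6*, and *Odc1* (0.995) and *Stx6* (0.992) for *Ccr8*. *Cxcr4* and *Ccr9*, which differed least between the subsets, had lower values, with *Gem* (0.98) and *Herpud2* (0.98) for *Cxcr4* and *Ddx20* (0.95) and *Hoxb3* (0.95) for *Ccr9*. Among the receptors themselves, *Cxcr3* was closest to *Ccr4* (0.99) and *Cxcr5* to *Ccr6* (0.98), and *Cxcr4* had its highest value, 0.69, with *Ccr6*.

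The genes are not evenly placed in the genome. On GRCm38, with GENCODE M21 annotation, 6 of the 9 receptor genes lie on chromosome 9, and *Ccr9* (123678439 to 123784330), *Cxcr6* (123806475 to 123811760) and *Ccr2* (124101950 to 124113557) are in 1 block with *Xcr1*, *Ccr1*, *Ccr1l1* and *Ccr3*. From the start of *Cxcr6* to the end of *Ccr2* is 307.1 kb. Within this block *Cxcr6*, *Ccr2*, *Ccr3* and *Xcr1* were higher in aTreg cells of both genotypes, *Ccr9* was not called, and *Ccr1* and *Ccr1l1* did not pass the filter. *Ccr4* (114490316 to 114504916), *Ccr8* (120092114 to 120094906) and *Cxcr5* (44511787 to 44561877) are elsewhere on chromosome 9. *Ccr6* is on chromosome 17 (8236043 to 8257141), *Cxcr3* on chromosome X (101731535 to 101734269) and *Cxcr4* on chromosome 1 (128588199 to 128592293).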

How the data were processed

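Sequencing of total RNA gave 8 libraries, 2 in each of 4 groups taken from the sample titles. Per the labels and the study's methods, the authors trimmed reads, removed duplicates with Picard, aligned to mm10 with HISAT2 2.0.5 and counted reads per gene with HTSeq, and deposited whole-number counts for 27594 genes, together with FPKM values. Removing duplicates can lower the highest counts. Whether counting used strand is not given in the sources used here. The deposited FPKM equal counts divided by total and gene length, so they add no measurement. They were used to compare receptors per length and as an alternative.

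Counts were normalised by TMM and filtered with filterByExpr (minimum count 10), which kept 14540 genes. One fit of all 8 libraries, with group means and the replicate number as a block (as in the study's paired analysis), was made with edgeR 4.0.16 (glmQLFit, glmQLFTest) in R 4.3.3, and p-values were Benjamini-Hochberg adjusted over all genes tested. Deviations from group means of same-numbered libraries correlated between groups with r of 0.355 to 0.597 over 14540 genes, for all 6 pairs of groups. Alternatives used limma 3.58.1, voom, DESeq2 1.42.0, log2(FPKM + 1) or log2(FPKM + 0.1), other filters, and each library left out. The scripts were tested on simulated counts.

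All 9 receptors are named. Of the other lists, at most 6 called genes a list are named, by highest mean CPM. Likeness was ranked by Pearson's r of log2 CPM (prior count 2), for receptors with a mean of at least 5 CPM, against genes with a given symbol (predicted and clone-named genes left out). Members, lists and rules were chosen with earlier results of these data known. Genes named as overlapping, deleted or sex-linked serve as checks and stand outside the rule. Promoter windows came from RefSeq (GRCm38.p6), for 8 of 9 receptors. Values of some listed genes are not reported here.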

Additional observations from a re-analysis of the deposited data

How the results depend on the processing

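The subset calls changed little: 7 or 8 of 9 receptors were called in every setting in both genotypes, with 0 lower. *Cxcr4* in Foxp1 cKO cells was lost without the replicate block, and *Ccr9* in WT cells was gained in 5 of 14 settings. The log2(FPKM + 1) scale, which shrinks low levels, gave 5.31 for *Cxcr3* and 2.33 for *Cxcr6* in WT cells. The genotype counts moved more. In rTreg cells the 4 called became 2 without the replicate block and 1 with log2(FPKM + 1) and no filter, and 2 to 3 with 1 library left out, and rose to 5 with DESeq2, 5 with the libraries of the comparison alone and 6 with no filter. In aTreg cells the 4 became 0 without the replicate block, 1 with log2(FPKM + 1), 0 with log2(FPKM + 0.1), 0 with log2(FPKM + 1) and no filter, and 1 to 2 with 1 library left out, and rose to 5 with limma-voom, 5 with no filter and 6 with the libraries of the comparison alone. The interaction count of 0 became 3 with no filter and 0 to 1 with 1 library left out. The cause was not tested. Over all genes, the rTreg genotype calls went from 814 to 266 and the aTreg calls from 586 to 77 without the block, to 128 and 19 with log2(FPKM + 1) and no filter, to 366 and 129 with log2(FPKM + 1), to 446 and 107 with log2(FPKM + 0.1), to 664 and 457 with DESeq2, and to 1190 and 1035 with no filter. The libraries of the comparison alone gave 827 and 349. With 1 library left out they were 214 to 482 and 117 to 537. The interaction calls went from 48 to 0 without the block, 279 with DESeq2 and 573 with no filter. In leave-one-out fits, the lone library of a group is assumed to vary like the other groups.

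Of the single-receptor values, 579 kept direction and call, 43 lost the call, 20 gained it and 15 changed sign. *Cxcr4* in aTreg cells (log2 fold change 0.039 between genotypes) was -0.093 without the replicate block, -0.015 with limma-voom, -0.00059 with the libraries of the comparison alone, -0.015 with log2(FPKM + 1), with or without a filter, -0.014 with log2(FPKM + 0.1), and -0.41 to 0.44 with 1 library left out. With 1 library left out, the rTreg genotype value of *Cxcr6* ran from -0.58 to 0.0051 and of *Ccr2* from -1.19 to 1.16. The interaction of *Ccr6* (0.22) was -0.14 with log2(FPKM + 1), with or without a filter, and -0.20 to 0.54 with 1 library left out (below 0 without WT rTreg replicate 1). With 1 library left out, that of *Ccr2* ran from -0.49 to 1.86 (below 0 without WT rTreg replicate 2) and that of *Ccr4* from -0.53 to 0.046 (above 0 without Foxp1 cKO rTreg replicate 1). With 2 libraries a group and 3 to 32 reads of *Ccr2* in rTreg libraries, small differences between genotypes were not detectable at this depth.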

Other observations

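Several receptors differed between the replicate numbers in all 4 groups. *Ccr8* was higher in replicate 1 by 2.00 to 4.56 times, *Cxcr4* by 1.30 to 2.80 times, *Ccr6* by 1.42 to 2.50 times and *Cxcr5* by 1.08 to 1.28 times. *Ccr2* was higher in replicate 2 by 1.53 to 6.82 times. *Ccr4*, *Ccr9*, *Cxcr3* and *Cxcr6* were higher in replicate 1 in 1 of 4 groups each. Of the other receptors, *Ccrl2* was also higher in replicate 1 in every group (5.71 against 2.12 CPM in WT rTreg and 34.1 against 11.1 CPM in WT aTreg cells). Replicate number goes with the sex-linked transcripts, and a day, batch or sex difference cannot be told apart here.

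The summed CPM of the 9 receptors was 261 and 145 in WT rTreg, 153 and 79.9 in Foxp1 cKO rTreg, 804 and 568 in WT aTreg and 827 and 849 in Foxp1 cKO aTreg libraries. Within each replicate number the Foxp1 cKO rTreg library was below the WT rTreg library, and the Foxp1 cKO aTreg library above the WT aTreg library. *Cxcr4* alone was 211 and 104 CPM of the WT rTreg sums and 103 and 36.9 CPM of the Foxp1 cKO rTreg sums. The sum thus followed *Cxcr4* in rTreg cells, where 3 of the 9 fitted genotype changes were above 0 and 6 below.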
